A study of Homo sapiens with 12 samples.

Results

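The transcription factor NRF2, encoded by NFE2L2, its relative NFE2L1, its partner MAFG, its competitor BACH1, its inhibitor KEAP1 and 4 of its target genes were followed in human embryonic stem cells (hESCs) with and without UBQLN1. The 9 genes were chosen by name, and all 9 were among the 28278 genes of the count table and among the 15916 that passed the filter on low counts. RNA-seq libraries of the hESC line WA26 fell into 4 groups of 2 libraries: wild-type (WT) cells and UBQLN1 knockout (KO) cells, both untreated and at normal O2, and KO cells that were either kept at 5% O2 or given N-acetylcysteine (NAC), a precursor of cysteine that is used as an antioxidant. UBQLN1 encodes a shuttle protein that carries ubiquitinated proteins to the proteasome, and the KO cells were made with CRISPR-Cas9. The labels describe 12 samples, of which the 4 treated WT samples (NAC or 5% O2) were not analysed here. Whether WT and KO cells differ in their response to either treatment was therefore not tested. The labels give no treatment for the untreated cells, whereas the scheme of the study names DMSO as the control for NAC, so untreated KO may mean KO with DMSO. The clone behind each library is not given, and the spread between the 2 libraries of a group may be technical or clonal.

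In cells that are not stressed, KEAP1 joins NRF2 to a CUL3 and RBX1 ubiquitin ligase, and the proteasome degrades NRF2. Oxidants and electrophiles modify cysteines of KEAP1, after which NRF2 protein accumulates, pairs with a small MAF protein such as MAFG and binds antioxidant response elements beside genes of detoxification, glutathione and NADPH metabolism. BACH1 pairs with the same small MAF proteins and represses part of these genes, above all HMOX1. NFE2L1 encodes NRF1, a relative of NRF2 that raises proteasome genes. Since NRF2 is controlled largely through the stability of its protein, mRNA levels of NFE2L2 and KEAP1 do not measure NRF2 activity.

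The core of the antioxidant response element, TGACNNNGC, was searched on both strands of RefSeq promoters (GRCh38.p14, 250 bases before to 50 bases after the start). It was present in 13.3% of 35116 promoters, in 1 of the 8 promoters of the set that had an entry (ME1), and in 11 of 43 promoters of other genes of the pathway. HMOX1 had no entry. The promoters of ME1 and of TXNRD1, which encodes thioredoxin reductase, each held 2 cores, and the one farther upstream is shown for each as an example of the letters that NRF2 with a MAF partner is known to bind, with the core in capitals and written 5′ to 3′ on the strand of the gene.
ME1 (minus strand, chr6:83431165-83431203, core from base -137): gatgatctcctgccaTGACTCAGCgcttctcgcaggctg
TXNRD1 (plus strand, chr12:104215665-104215703, core from base -99): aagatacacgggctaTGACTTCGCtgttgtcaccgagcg
The ME1 core shown also holds TGACTCA, the site of AP-1 factors. A match in these windows describes letters and not binding, which was not measured. Elements farther upstream than 250 bases lie outside the windows, so a window without a core, as for NQO1, does not show that the gene lacks one.

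Library totals lay between 31236968 and 41639350 counts, and over all genes the biological coefficient of variation was 13.7%. UBQLN1 was at 221 and 197 CPM in WT and between 42.3 and 62.4 CPM in the 6 KO libraries. All 8 hESC markers (POU5F1, NANOG, SOX2, LIN28A, DNMT3B, TDGF1, ZFP42 and DPPA4) were detected in every library, with a summed level of 5261 to 6300 CPM. Single hESC markers moved in both directions with NAC, with 3 of 8 higher and 2 lower against untreated KO (62.5% called, beside 44.6% of all tested genes). Among them were DPPA4 (log2 fold change 0.70), ZFP42 (0.61) and DNMT3B (-0.97). NANOG had a mean of 154 CPM in untreated KO and 124 CPM with NAC, and TDGF1 536 and 641 CPM. With the trend in transcript length and GC content described below removed, 2 of the 8 were called higher and 3 lower. This stands beside 3967 of 14828 called over all genes. In that fit NANOG was at -0.30 and TDGF1 turned to -0.27. The first NAC library stood apart: 8 mesenchymal markers summed to 470 CPM there and to 150 to 221 CPM in the other 7 libraries, and DCN (47.2 CPM) and LUM (3.86 CPM) were at 0 in those 7. COL3A1 was at 29.1 CPM in it and at 0 to 0.207 CPM elsewhere. Neuroectoderm markers summed to 625 and 639 CPM in untreated KO, 396 and 427 CPM in WT, 375 and 456 CPM at 5% O2, and 238 and 258 CPM with NAC, while PAX6 did not exceed 0.104 CPM. Most of this sum was NES and ZIC1, with means of 436 and 174 CPM in untreated KO. SOX1 also had lower means with either treatment than in untreated KO. OTX2 did not follow the sum, at 11.1 ± 0.06 CPM in untreated KO, 12.4 ± 1.13 CPM at 5% O2 and 14.5 ± 5.13 CPM with NAC (mean ± SD, n = 2). The part of these cell type markers in the results below was not tested, and in bulk libraries fewer cells of a type and less RNA per cell cannot be told apart.

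All levels are in CPM, the share of a library's counts scaled to a fixed library size and normalised between libraries by edgeR's TMM method, and levels of different genes are compared as CPM per kb of transcript. In WT, TALDO1 was the most abundant of the 9 genes at 286 ± 5.38 CPM per kb (SD, n = 2), followed by NFE2L1 (51.6 ± 0.42), KEAP1 (40.1 ± 1.07), NQO1 (21.8 ± 0.18) and HMOX1 (18.8 ± 1.99). NFE2L2 (10.3 ± 1.24), MAFG (9.83 ± 0.40) and BACH1 (9.01 ± 0.86) came next, and neighbours in this triplet overlapped between libraries. ME1 was lowest at 2.58 ± 0.22 CPM per kb. KEAP1 mRNA was thus above NFE2L2 mRNA on this scale in every group. In untreated KO, NQO1 reached 36.3 ± 1.98 CPM per kb and overlapped with KEAP1 at 37.4 ± 2.03. Over the 8 libraries, the ratio of the highest to the lowest level ran from 1.21 for BACH1 to 1.99 for MAFG.

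**Figure D1:**
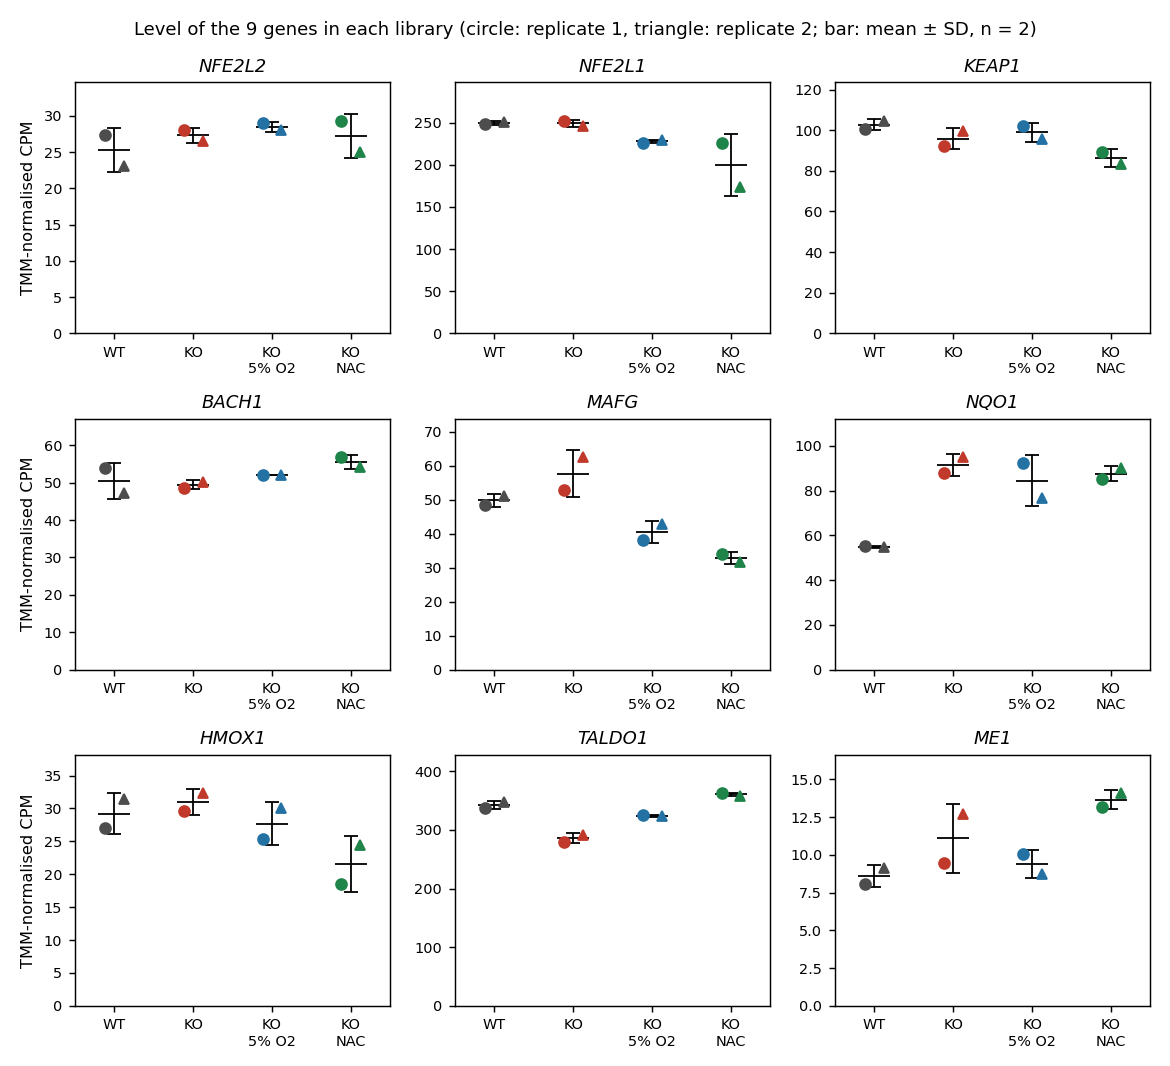
TMM-normalised CPM (y axes, from 0) of each gene in the 2 libraries of WT, untreated KO, KO at 5% O2 and KO with NAC, with mean ± SD bars. NQO1 lies at 54.6 and 55.2 CPM in WT and at 76.4 to 95.04 CPM in the 6 KO libraries, and MAFG is lowest with NAC (31.5 and 34.1 CPM).

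The first comparison asked which of the 9 genes differed with the loss of UBQLN1 at normal O2. NQO1 rose in KO, and none of the other 8 genes passed the test. NQO1 encodes a quinone reductase that uses NADPH or NADH and is a classical NRF2 target. It lies on chromosome 16 from 69706996 to 69726668 on the minus strand (hg38, GENCODE v44). NQO1 was at 55.2 and 54.6 CPM in the WT libraries and at 88.0 and 95.04 CPM in the untreated KO libraries. Both KO libraries were above both WT libraries. The log2 fold change was 0.74 (SE 0.11, adjusted p = 0.0044 in the quasi-likelihood F test of edgeR, adjusted by Benjamini-Hochberg over all tested genes), or 1.67-fold. The 1 gene called of 9 stands beside 1.96% of all tested genes called in either direction. Leaving out 1 library kept the log2 fold change between 0.68 and 0.79, but the adjusted p was 0.059 without the first WT library, 0.0728 without the second WT library, 0.0798 without the second KO library and 0.0362 without the first KO library, each of which leaves 1 library in an arm.

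NQO1 also stayed above the WT range in the treated KO cells. It was at 92.4 and 76.4 CPM at 5% O2 and at 85.2 and 90.0 CPM with NAC. Every KO library, treated or not, therefore lay above both WT libraries. Against untreated KO, the log2 fold change of NQO1 was -0.12 at 5% O2 (95% interval -0.34 to 0.11) and -0.06 with NAC (-0.29 to 0.17), and neither passed the test.

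NFE2L2, which encodes NRF2 itself, was at 27.4 and 23.1 CPM in WT and at 28.1 and 26.5 CPM in KO, and the 2 groups overlapped. Its log2 fold change was 0.11, with a 95% interval from -0.16 to 0.39. KEAP1 was at 101 and 105 CPM in WT and at 92.2 and 99.6 CPM in KO (log2 fold change -0.10, 95% interval -0.30 to 0.10). The KEAP1 groups did not overlap, but the difference did not pass the test (adjusted p = 0.604). BACH1 (log2 fold change -0.03) and NFE2L1 (-0.0024) had overlapping groups. MAFG was at 48.3 and 51.2 CPM in WT and at 52.7 and 62.5 CPM in KO, without overlap, and did not pass the test (log2 fold change 0.21, adjusted p = 0.352).

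The other targets did not share the rise of NQO1 at the threshold. HMOX1, which encodes heme oxygenase, was at 27.0 and 31.4 CPM in WT and at 29.6 and 32.3 CPM in KO, and the groups overlapped (log2 fold change 0.08, 95% interval -0.24 to 0.41). ME1, the cytosolic malic enzyme that makes NADPH, was at 8.09 and 9.13 CPM in WT and at 9.49 and 12.7 CPM in KO (0.37, 95% interval -0.02 to 0.76). TALDO1, transaldolase of the pentose phosphate pathway, was at 338 and 347 CPM in WT and at 279 and 292 CPM in KO. Both KO libraries of TALDO1 were below both WT libraries, and its log2 fold change was -0.26 (standard error 0.08, adjusted p = 0.103). TALDO1 passed with DESeq2 (adjusted p = 0.0308) and in a fit of the WT and KO libraries alone (adjusted p = 0.0487), but not in the other alternatives. The median log2 fold change of the 9 genes was 0.08, against -0.0024 over all tested genes. By the criteria of the study (absolute log2 fold change over 1 and unadjusted p under 0.05), 0 of the 9 genes and 2.57% of all genes were called. Here and below these criteria were applied to the edgeR fit, whereas the study applied them to DESeq2. While 2 of the 9 had an unadjusted p under 0.05 in edgeR, the share of all genes at that threshold is not reported here.

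**Figure D2:**
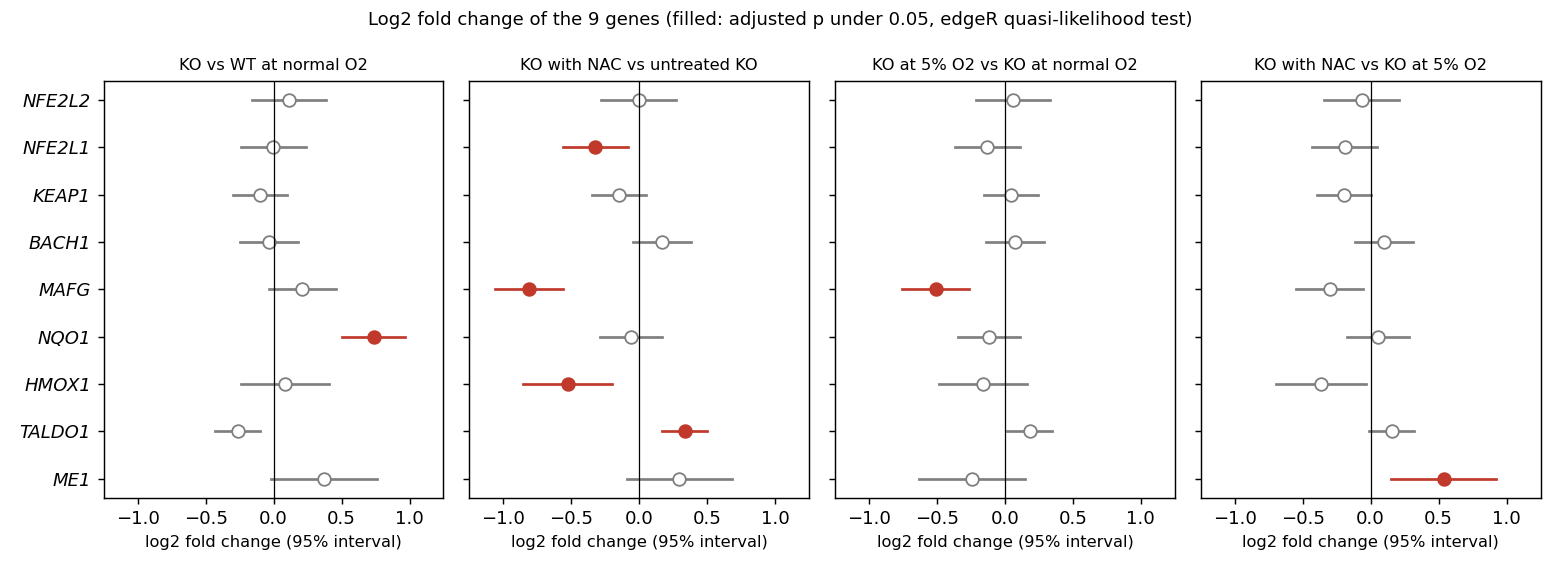
Log2 fold change (x axes) of the 9 genes (rows) in 4 comparisons (panels), with 95% intervals from edgeR and filled points where the adjusted p was under 0.05. NQO1 is the filled gene for KO against WT, and 3 genes lie filled to the left and 1 to the right for NAC against untreated KO.

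The second comparison was KO with NAC against untreated KO at normal O2. The scheme of the study gives NAC over repeated passages, with DMSO as its control. Vehicle, passage and culture run may therefore differ between these groups along with NAC, and their part was not tested. HMOX1, MAFG and NFE2L1 fell and TALDO1 rose, while NFE2L2, KEAP1, BACH1, NQO1 and ME1 did not pass the test. These 4 of 9 called genes (44.4%) stand beside 44.6% of all tested genes, so the share is that of the background. This comparison shares the untreated KO libraries with the comparison of KO with WT and with that of 5% O2, so its values are not independent of theirs.

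HMOX1 lies on chromosome 22 from 35380361 to 35394214. It was at 29.6 and 32.3 CPM in untreated KO and at 18.6 and 24.5 CPM with NAC, so that both NAC libraries were the lowest of all 8. The log2 fold change was -0.53 (standard error 0.15, adjusted p = 0.0133 from edgeR), a ratio of 0.694. Of the 4 genes called with NAC, HMOX1 was the one whose call held once the dependence of each library on length and GC content of the transcripts had been fitted and removed (-0.49, adjusted p = 0.0275). The lower of its NAC libraries was the one with mesenchymal markers, and without that library the log2 fold change was -0.34 (adjusted p = 0.0803). It was -0.46 (adjusted p = 0.0978) without the second untreated KO library.

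MAFG, the small MAF partner of NRF2, NRF1 and BACH1, was at 52.7 and 62.5 CPM in untreated KO and at 34.1 and 31.5 CPM with NAC. The log2 fold change of MAFG was -0.81 (standard error 0.11, adjusted p = 0.000149), the largest of the 9 genes with NAC, and was between -0.93 and -0.68 when 1 library was left out. NFE2L1 was at 253 and 246 CPM in untreated KO and at 226 and 173 CPM with NAC (log2 fold change -0.32, standard error 0.11, adjusted p = 0.0314). Its 2 NAC libraries lay far apart, and without the second of them the value was -0.14 (adjusted p = 0.213). The call of NFE2L1 was also lost without the first (adjusted p = 0.143) or the second (adjusted p = 0.105) untreated KO library. Without the first NAC library it was -0.53 (adjusted p = 0.000341), and with the length and GC trend removed it turned to 0.11.

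TALDO1 rose from 279 and 292 CPM in untreated KO to 363 and 358 CPM with NAC, above the 338 and 347 CPM of WT. Its log2 fold change with NAC was 0.34 (standard error 0.08, adjusted p = 0.00345), and its adjusted p was 0.0524 without the first untreated KO library. ME1 was at 9.49 and 12.7 CPM in untreated KO and at 13.2 and 14.1 CPM with NAC, without overlap (0.30, 95% interval -0.09 to 0.68). NFE2L2 was at 29.3 and 25.1 CPM with NAC and overlapped with untreated KO (log2 fold change -0.0042, 95% interval -0.28 to 0.27). KEAP1 was at 89.4 and 83.2 CPM and BACH1 at 56.9 and 54.3 CPM with NAC, and their log2 fold changes were -0.15 (adjusted p = 0.203) and 0.17 (adjusted p = 0.186). The median of the 9 genes was -0.06, against 0.02 over all genes, and by the criteria of the study 0 of the 9 genes were called, against 9.02% of all genes.

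The values with NAC moved with the base composition and length of the genes. Over 14828 genes with a known length and GC content, Spearman's rho between log2 fold change and GC content was -0.50 with NAC, -0.34 at 5% O2 and 0.15 for KO against WT. With transcript length it was -0.26, -0.25 and 0.23 in the same order. These are descriptions across genes, which are not independent. Among the members, GC content ran from 38.2% in BACH1 and 39.3% in ME1 to 57.7% in HMOX1 and 60.2% in KEAP1. With this trend removed, the log2 fold changes with NAC passed the test for NFE2L2 (log2 fold change -0.50, adjusted p = 0.00719), NQO1 (-0.44, adjusted p = 0.00658) and HMOX1, all below 0, while MAFG (-0.27, adjusted p = 0.0629), TALDO1 (0.15, adjusted p = 0.0823) and NFE2L1 (0.11, adjusted p = 0.476) no longer passed. NFE2L2 and NQO1 were thus called only in this alternative of the 11 that were run. For KO against WT, the NQO1 value with the trend removed was 0.82 (adjusted p = 0.00167). Whether the trend is technical or belongs to the treatment was not tested.

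**Figure D3:**
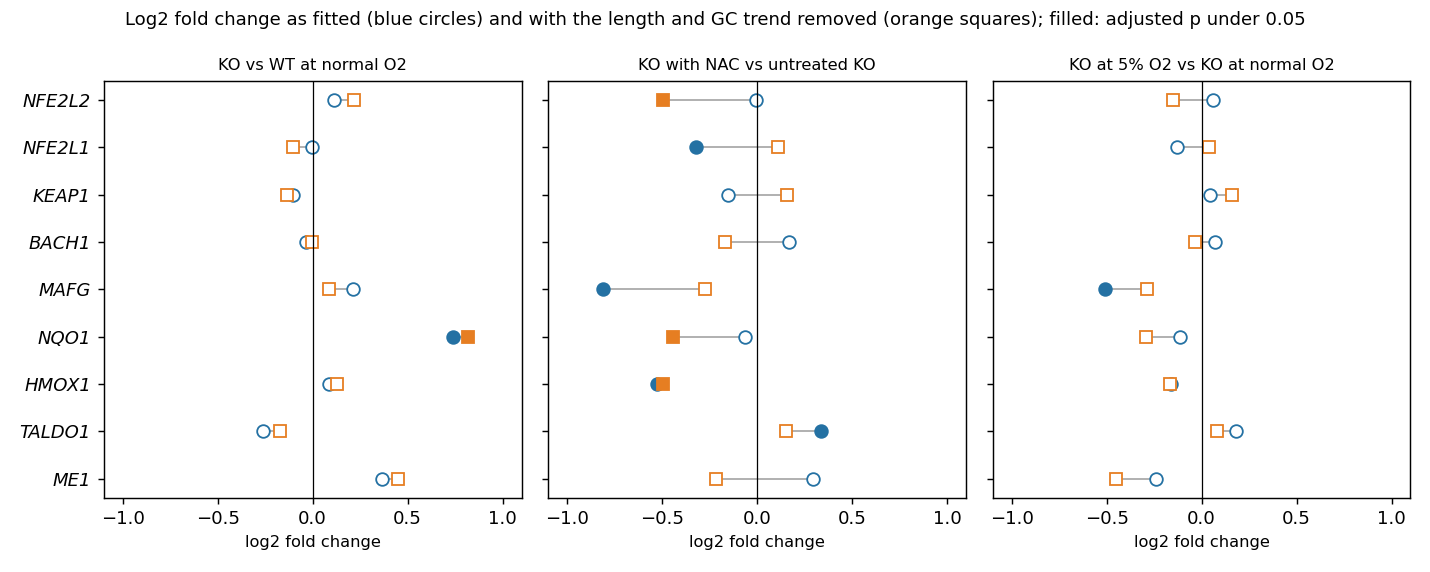
Log2 fold change (x axes) of the 9 genes (rows) as fitted (circles) and with the length and GC trend removed (squares) in 3 comparisons, filled where the adjusted p was under 0.05. NQO1 for KO against WT and HMOX1 with NAC are filled in both fits, while MAFG with NAC moves from -0.81 to -0.27.

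The third comparison was KO at 5% O2 against KO at normal O2. MAFG fell, and the other 8 genes did not pass the test. MAFG was at 52.7 and 62.5 CPM at normal O2 and at 38.2 and 42.7 CPM at 5% O2, without overlap. Its log2 fold change was -0.51 (standard error 0.11, adjusted p = 0.0233), and 1 of 9 genes called stands beside 7.81% of all tested genes. The call was lost when any 1 of the 4 libraries was left out, with adjusted p-values from 0.0631 to 0.278, and with the length and GC trend removed (-0.29, adjusted p = 0.168).

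TALDO1 was at 325 and 323 CPM at 5% O2, above both untreated KO libraries (log2 fold change 0.18, 95% interval 0.02 to 0.35, adjusted p = 0.162). HMOX1 was at 25.4 and 30.0 CPM (-0.16, 95% interval -0.49 to 0.16) and ME1 at 10.1 and 8.73 CPM (-0.24, 95% interval -0.63 to 0.15), and both overlapped with untreated KO. NFE2L2, at 28.97 and 27.99 CPM, and KEAP1, at 102 and 95.6 CPM, had log2 fold changes of 0.06 and 0.05 with overlapping groups. BACH1 was at 52.0 CPM in both libraries (0.07, adjusted p = 0.708) and NFE2L1 at 227 and 229 CPM (-0.13, adjusted p = 0.498). The median of the 9 genes was -0.12, against -0.00025 over all genes, and the criteria of the study called 0 of the 9 genes and 2.02% of all genes.

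The 2 treatments of KO cells were also compared with each other. The study's text and scheme differ on how long the cells were kept at 5% O2 before RNA-seq, so the exposures may be of unequal length. ME1 was higher with NAC, at 13.2 and 14.1 CPM, than at 5% O2, at 10.1 and 8.73 CPM. The log2 fold change was 0.54 (standard error 0.18, adjusted p = 0.0404). This 1 gene of 9 stands beside 29.1% of all genes called. The ME1 call was lost without either library at 5% O2 (adjusted p = 0.0797 and 0.251), without the second NAC library (0.0723), in a fit of these 2 groups alone (0.0742) and with the trend removed (0.23, adjusted p = 0.404). NFE2L2 had a log2 fold change of -0.07 (95% interval -0.34 to 0.21) with overlapping groups, and with the trend removed it was the 1 member called (-0.35, adjusted p = 0.0498). MAFG (-0.30, adjusted p = 0.0665) and HMOX1 (-0.36, adjusted p = 0.0918) had lower values with NAC than at 5% O2 in both libraries without passing the test. For the latter, the value was -0.18 without the first NAC library. NFE2L1 was at -0.19 (adjusted p = 0.217), and at -0.40 (adjusted p = 0.00585) without the first NAC library. By the criteria of the study, 0 of the 9 genes and 4.42% of all genes were called.

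The wider pathway was read from 57 other genes in 6 lists, of which 54 were tested and ABCC3, AKR1B10 and CES1 were not. For KO against WT, 2 of 54 rose and 0 fell (3.70%, beside the 1.96% of all genes). Both were regulators: CREBBP, a coactivator that acetylates NRF2 (log2 fold change 0.63, adjusted p = 0.0197), and DDI2, the protease that activates NRF1 (0.43, adjusted p = 0.0405). Neither passed with the trend removed (adjusted p = 0.0558 and 0.0628), nor when any 1 of the 4 libraries was left out. None of the 37 tested genes of the target lists passed. In edgeR 5 of them had an unadjusted p under 0.05, a threshold for which the share of all genes is not reported here. DESeq2 called 5 of the 54 genes, beside 824 of all 15916 tested genes. The medians of the target lists ran from -0.22 for transport and other targets to -0.10 for glutathione and thioredoxin. The rise of NQO1 was thus not accompanied by calls in these lists in the main fit.

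With NAC, 15 of 54 genes rose and 11 fell (48.1%, beside 44.6% of all genes). The share called was 63.6% for glutathione and thioredoxin, 75.0% for NADPH and pentose phosphate and 66.7% for quinone, carbonyl and drug metabolism. It was 28.6% for heme and iron and 0% for transport and other targets. In the glutathione and thioredoxin list 6 of 11 rose, among them GSTM3, a glutathione transferase (log2 fold change 0.96, adjusted p = 0.0101), MGST1 (0.75), TXN, thioredoxin (0.75), and TXNRD1 (0.55, adjusted p = 0.000667), and GCLC, the catalytic subunit of glutamate-cysteine ligase, fell (-0.35, adjusted p = 0.0222). With the length and GC trend removed, MGST1 (-0.25, adjusted p = 0.0168) and TXN (-0.39, adjusted p = 0.0104) turned and passed the test as lower, while GSTM3 (0.92), TXNRD1 (0.37) and GCLC (-0.51) kept direction and call. The GCLC call was lost without the first NAC library (-0.24, adjusted p = 0.126) or either untreated KO library (adjusted p = 0.147 and 0.063), and the GSTM3 call without the second untreated KO library (0.68, adjusted p = 0.119). In the NADPH and pentose phosphate list, IDH1 (0.72) and PGD (0.32) rose. Of 7 heme and iron genes, FTL (0.34) and ABCB6 (0.26) rose, and neither passed without the first NAC library (FTL 0.19, adjusted p = 0.186, ABCB6 0.27, adjusted p = 0.074) or without the first untreated KO library (adjusted p = 0.247 and 0.215). ABCB6 was also lost without either of the other libraries (adjusted p = 0.135 and 0.0791), and FTL with the trend removed (0.18, adjusted p = 0.163). With the trend removed, ABCB6 passed in edgeR as higher (0.61, adjusted p = 0.000834). FTH1 (-0.57, adjusted p = 0.00476) and BLVRA (-0.30, adjusted p = 0.0435) then passed as lower. The heme and iron list thus held 1 higher and 2 lower in that fit. None of 6 transport and other targets passed, and 0 had an unadjusted p under 0.05 in edgeR.

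In the quinone, carbonyl and drug metabolism list, AKR1C2 (log2 fold change 2.79), AKR1C1 (2.75), PIR (1.28) and CBR1 (0.44) rose, and CBR3 (-0.64) and ABHD4 (-0.44) fell. The aldo-keto reductases AKR1C1 and AKR1C2 rested on the library with mesenchymal markers: AKR1C1 was at 11.8 CPM there, at 1.84 CPM in the second NAC library and at 1.19 and 0.850 CPM in untreated KO. Without the first NAC library, AKR1C1 was at 0.85 and AKR1C2 at 1.16, and neither passed the test. AKR1C2 also did not pass without either untreated KO library (adjusted p = 0.0593 and 0.0556). AKR1C1 and AKR1C2 share 45.0% and 54.9% of their 31-base words with other places of the genome, so reads could not always be assigned between them. The fall of CBR3 was -0.41 (adjusted p = 0.0509) without the second NAC library, and its call was also lost without either untreated KO library (adjusted p = 0.0628 and 0.0529). CBR1 did not pass without the first NAC library (0.22, adjusted p = 0.129) or without either untreated KO library (adjusted p = 0.0779 and 0.0874), and PIR did not without the first untreated KO library (0.85, adjusted p = 0.102). With the trend removed, PIR (0.89, adjusted p = 0.0908), CBR1 (0.27, adjusted p = 0.0923) and ABHD4 (-0.27, adjusted p = 0.0629) lost their calls.

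Among 17 regulators, 7 fell with NAC and RBX1, the RING subunit of the KEAP1 and CUL3 ligase, rose. This share of 47.1% is close to the 44.6% of all tested genes. RBX1 was at 74.9 and 72.7 CPM in untreated KO and at 175 and 164 CPM with NAC (log2 fold change 1.20, adjusted p = 2.04e-05), and CUL3 fell (-0.36, adjusted p = 0.00382). CREBBP fell from 129 and 119 CPM to 38.8 and 43.8 CPM (-1.59, adjusted p = 1.28e-05), and EP300, a coactivator of the same family, fell too (-1.23, adjusted p = 2.41e-05). MAFK, another small MAF gene, fell (-1.01, adjusted p = 0.000243), as did DDI2 (-0.79, adjusted p = 6.04e-05). With the trend removed, RBX1 was at 0.76, CREBBP at -0.75, EP300 at -0.71, MAFK at -0.47 and DDI2 at -0.56, all still past the threshold. The counts over the 54 genes were then 9 higher and 15 lower, beside 3967 of 14828 called over all genes. In the glutathione and thioredoxin list they were 2 higher and 4 lower, so the direction of that list turned with the trend (median 0.31 as fitted and -0.25 with the trend removed).

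**Figure D4:**
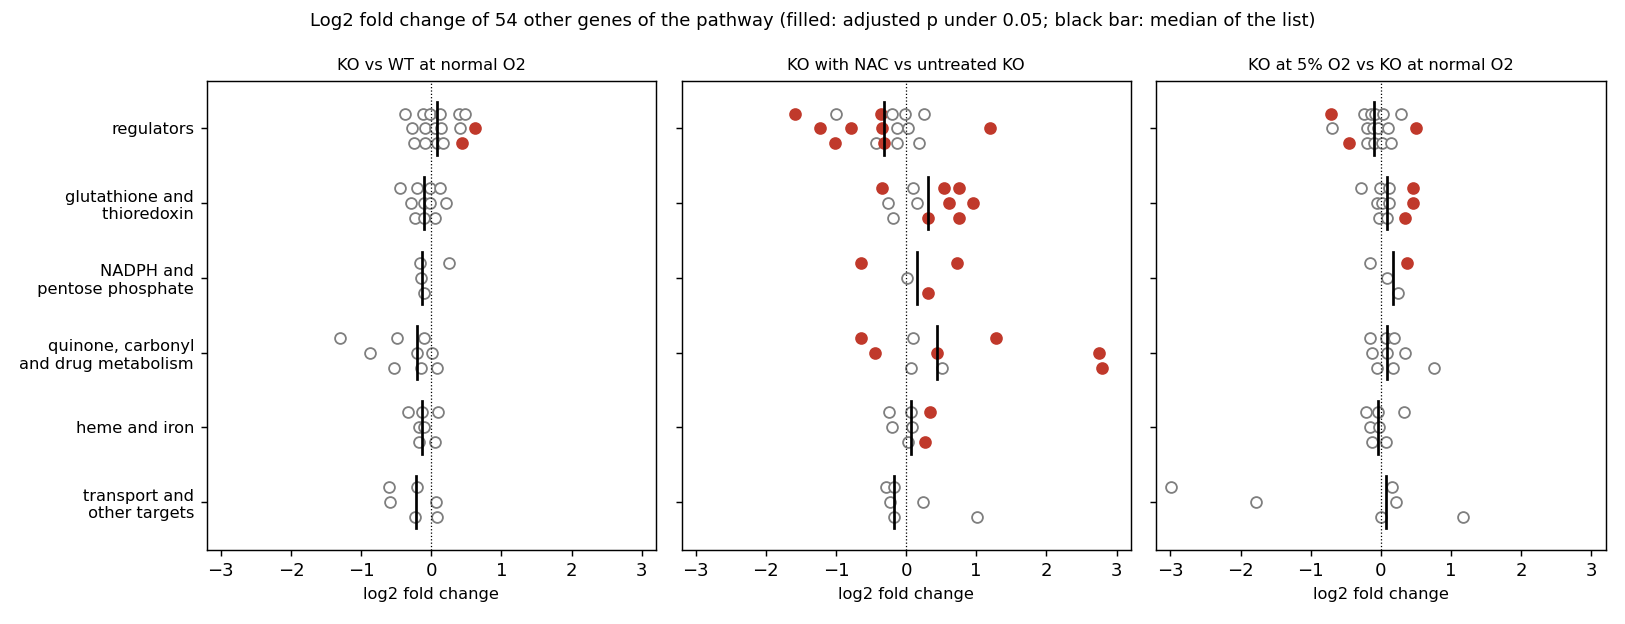
Log2 fold change (x axes) of the 54 tested genes of the wider pathway by list (rows) in 3 comparisons, filled where edgeR's adjusted p was under 0.05, with the list median as a black bar. With NAC the filled regulators lie mostly to the left and the filled glutathione and thioredoxin genes mostly to the right, a direction that turned for the latter list's median with the length and GC trend removed.

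At 5% O2, 5 of the 54 genes rose and 2 fell against KO at normal O2 (13.0%, beside 7.81% of all genes). RBX1 (0.50), PRDX1, a peroxiredoxin (0.46), MGST1 (0.46), IDH1 (0.38) and TXN (0.34) rose, and CREBBP (-0.71) and EP300 (-0.46) fell, with adjusted p-values from edgeR between 0.00918 and 0.0394. Each of these calls was lost without at least 3 of the 4 libraries in turn. With the trend removed, 0 of 54 passed, beside 229 of 14828 over all genes, and TXN turned to -0.15. Between NAC and 5% O2, 8 of 54 were higher and 9 lower with NAC (31.5%, beside 29.1% of all genes), among them GSTM3 (0.98) and TXNRD1 (0.44) higher, both lost without the second library at 5% O2 (adjusted p = 0.0547 and 0.0629) and GSTM3 also without the first (0.122), and CREBBP (-0.88) and MAFK (-0.81) lower.

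The genes most alike in pattern were sought for NFE2L2, NQO1 and HMOX1 by Pearson's r of log2 CPM over the 8 libraries, as a description. They were PTBP3 (0.97), SPART (0.97) and ANP32E (0.94) for NFE2L2, CCDC125 (0.98) and LBX2.AS1 (0.97) for NQO1, and RHOT2 (0.99), WDR81 (0.99) and SMAD9 (0.98) for HMOX1. None of these 8 genes belongs to the members or the pathway lists. The 9 members and 54 tested pathway genes are a small part of the 15916 tested genes. Their absence from so short a list therefore cannot show whether they move together.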

How the data were processed

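The deposited values were raw counts per gene, without normalization. By their processing notes and methods, the authors checked reads with FastQC 0.11.9 and mapped them with HISAT2 (build hg38). The methods also name trim-galore for quality control before mapping. Counting used featureCounts at default settings, which ignore strand and leave out reads that match several places. Reads of overlapping genes on opposite strands therefore cannot be told apart. The annotation used for counting is not given in the sources used here. Each of the 8 count columns was matched to a sample by title.

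Counts were filtered with filterByExpr (minimum count 10), scaled by TMM factors, and the two-sided quasi-likelihood test of edgeR (4.0.16, R 4.3.3) was run in 1 fit of 8 libraries with a term per group (4 residual degrees of freedom). P-values were adjusted by Benjamini-Hochberg over 15916 genes, and a gene was called at an adjusted p under 0.05. The alternatives were DESeq2 1.42.0, RLE normalization, 2 other filters, a replicate block, a fit of the 2 groups compared, removal of a smooth dependence on length and GC content of the transcripts (mgcv 1.9.3, lengths known for 93.2% of tested genes), the criteria of the study applied to the edgeR fit, and leaving out each library. In the last, the lone library of a group is assumed to vary like the other groups. The code was tested on simulated data.

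The members and lists were chosen with earlier results of these data known. All 9 members are named, with the 5 largest called changes in each direction among pathway genes and other list members named after their values were seen. The values of some genes are not reported here. Replicates differed by more than sampling noise (chi-square per degree of freedom 9.80 to 32.3). Gene positions are from GENCODE v44. At most 9.31% of a member's 31-base words occur elsewhere on the primary chromosomes.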

Additional observations from a re-analysis of the deposited data

How the results depend on the processing

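The NQO1 rise in KO kept its direction in all 11 alternatives and its call in 8, and the HMOX1 fall with NAC kept its direction in all 11 and its call in 9. KEAP1 and BACH1 passed in none of the alternatives of any comparison. With the length and GC trend removed, the log2 fold changes of these members turned: with NAC against untreated KO, NFE2L1 0.11, KEAP1 0.16, BACH1 -0.17 and ME1 -0.22, at 5% O2 against normal O2, NFE2L2 -0.15, NFE2L1 0.042 and BACH1 -0.036, and with NAC against 5% O2, NFE2L1 0.070, BACH1 -0.13, MAFG 0.014 and NQO1 -0.15. The cause of these turns was not tested.

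Under the criteria of the study, members called were 0 in each of the 4 comparisons, since no member passed a log2 fold change of 1. Pathway genes called were 0 for KO against WT, 7 with NAC, 1 at 5% O2 and 2 for NAC against 5% O2. These stand beside 2.57%, 9.02%, 2.02% and 4.42% of all genes. For KO against WT, members called were 2 with DESeq2 and with the 2 groups alone, and pathway genes called were 5 with DESeq2, 7 without a filter, 6 with the 2 groups alone and 0 with the trend removed. In these 4 settings, calls over all genes were 824 of 15916, 1252 of 21141, 1124 of 15520 and 195 of 14828, against 312 of 15916 in the main fit. For NAC against 5% O2, members called were 3 with DESeq2, 2 with RLE, 3 without a filter and 0 with the 2 groups alone. Beside these, calls over all genes were 4840 of 15916, 4575 of 15916, 5310 of 21141 and 3050 of 15226, against 4635 of 15916 in the main fit. At 5% O2, 0 members and 0 pathway genes were called with the trend removed, beside 229 of 14828 over all genes. The cause of these differences was not tested.

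Leaving out 1 library gave 0 to 1 members and 0 to 0 pathway genes called for KO against WT, 2 to 3 and 17 to 28 with NAC, 0 to 0 and 0 to 4 at 5% O2, and 0 to 2 and 7 to 20 for NAC against 5% O2. Log2 fold changes that turned had these ranges: for KO against WT, NFE2L2 -0.0045 to 0.24, NFE2L1 -0.019 to 0.016, BACH1 -0.13 to 0.069 and HMOX1 -0.018 to 0.20, with NAC, NFE2L2 -0.13 to 0.10, at 5% O2, KEAP1 -0.0088 to 0.10 and NQO1 -0.26 to 0.014, and for NAC against 5% O2, NFE2L2 -0.19 to 0.043 and NQO1 -0.079 to 0.19.

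Same-numbered libraries showed little shared deviation (correlations of -0.02 to 0.08 between groups). All tested genes weigh alike in these correlations, whatever their counts, so they cannot settle whether the numbers pair the samples. With the replicate block, members called for NAC against 5% O2 were 2, since HMOX1 passed (-0.37, adjusted p = 0.0292 from edgeR), and all other member calls were as without the block. Over all genes, 366, 7173, 1417 and 4796 genes were called with the block for KO against WT, NAC, 5% O2 and NAC against 5% O2, against 312, 7100, 1243 and 4635 without it. DESeq2 called 824 genes for KO against WT and 1955 at 5% O2, against 312 and 1243 in edgeR. With the trend removed, 195, 3967, 229 and 2477 genes were called, and at 5% O2 168 were higher and 61 lower, against 586 and 657. Each member had at least 270 counts in every library. The effect of depth on the calls was not tested.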
